A study of Mus musculus with 8 samples.

Results

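The cAMP signalling machinery and its CREB targets were examined in macrophages of mice with and without the prostaglandin E2 receptor EP2. The set was a list of 43 genes, of 20882 named genes on the array. It was chosen by name: receptors, the stimulatory G protein, cyclases, phosphodiesterases, protein kinase A, Epac, CREB factors with their coactivators, and early CREB targets. A member was measured by every gene probe whose design transcript belonged to it, which gave 65 probes. At least 1 probe passed the detection filter for 41 members, and these 41 were well above background on all 8 arrays. The other 2, Nr4a3 and Rapgef4, were below that limit and were not tested.

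RNA had come from macrophages of 4 wild-type samples (WT 1 to 4) and 4 EP2-KO samples (EP2KO 1 to 4), each hybridised to a 1-colour Agilent array. Both genotypes had received LPS (bacterial lipopolysaccharide) and all samples were labelled as male, so neither an untreated group nor a group without LPS was compared here. The strain, the age, the LPS dose and time, the knockout allele and the site from which macrophages were taken are not given in the sources used here. Nothing in the labels says that the replicates of a genotype are separate mice. Every p-value here therefore rests on the spread among these 8 samples, which may be technical.

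EP2, encoded by Ptger2, is coupled to the stimulatory G protein, which activates adenylyl cyclases to make cAMP. cAMP releases the catalytic subunits of protein kinase A from their regulatory subunits and activates Epac, and phosphodiesterases degrade it. Protein kinase A phosphorylates CREB, which binds cAMP response elements in promoters, and the CRTC coactivators join CREB there. In macrophages this pathway is known for dampening inflammatory cytokine production, and EP2 and the adenosine A2 receptors are among the receptors that feed it.

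Signals are given as a multiple of the array's 75th percentile (relative signal), and differences as log2 values ± the standard error from limma. Because different probes respond differently, relative signals compare arrays for 1 gene and never 1 gene with another. Ptger2, the disrupted gene, read 0.972, 1.12, 0.899 and 1.00 in WT 1 to 4 and 0.357, 0.287, 0.323 and 0.225 in EP2KO 1 to 4. Its groups did not overlap, and EP2KO was lower by a log2 difference of -1.76 ± 0.17 (limma, Benjamini-Hochberg adjusted p = 0.0616). Blocking on the slide gave an adjusted p of 0.0328, and blocking on the replicate number 0.217. Whether this probe lies in the disrupted part of the gene is not known here. Both probes of Xist exceeded background clearly on all 8 arrays, whereas the Y-linked Ddx3y, Eif2s3y and Kdm5d were on none and Uty on 1 array by 1 of its probes, which goes against the label male. All 9 macrophage markers measured, such as Adgre1 and Csf1r, were well above background on every array.

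The arrays lay on 2 slides, and the headers give each slide its own scan day. Slide 1 held WT 1, WT 2, EP2KO 1 and EP2KO 2, and slide 2 held the rest. Within a slide the WT arrays took positions 1 and 2 and the EP2KO arrays 3 and 4, and the effects of genotype and of position on the slide cannot be told apart. Arrays separated by slide far more than by genotype: 43.2% of all 20740 features differed between slides at an adjusted p under 0.05, against 0.00964% between genotypes. Each genotype result is therefore given within each slide as well. Probes well above background numbered 25555 (WT 1) to 32147 (WT 3) of 39429, and the number of arrays limits the precision.

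No member passed the test between genotypes. None of the 41 passed an adjusted p of 0.05 (limma with Benjamini-Hochberg adjustment over 20740 features, two-sided), where 0.00964% of all features did, and none had an unadjusted p under 0.05, where 1.98% did. With the slide as a block none passed either (0.0193% of all features), and the smallest adjusted p was 0.237. That fit gave 1 member, Pde7b, an unadjusted p under 0.05, where 7.34% of all features had one. With the replicate number as a block 0 members and 0% of features passed. In that fit 1 of 41 members and 1130 of 20740 features had an unadjusted p under 0.05. The median difference over members was 0.02, beside -0.03 over all features tested. Members ranged from -0.60 (Adcy4) to 0.66 (Pde7b), and 23 of 41 lay above 0. By the slide-blocked fit, the 95% interval of the difference lay within a 2-fold change either way for 35 of 41 members (82.7% of all features) and within a 1.5-fold change for 27 (61.3%). Without the block, intervals within 2-fold were found for 23 members (67.7% of all features). Scaling each array to its median in place of its 75th percentile moved the median of all features from -0.03 to 0.12, and that of the members from 0.02 to 0.16, so small differences have to be read against that shift.

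**Figure D1:**
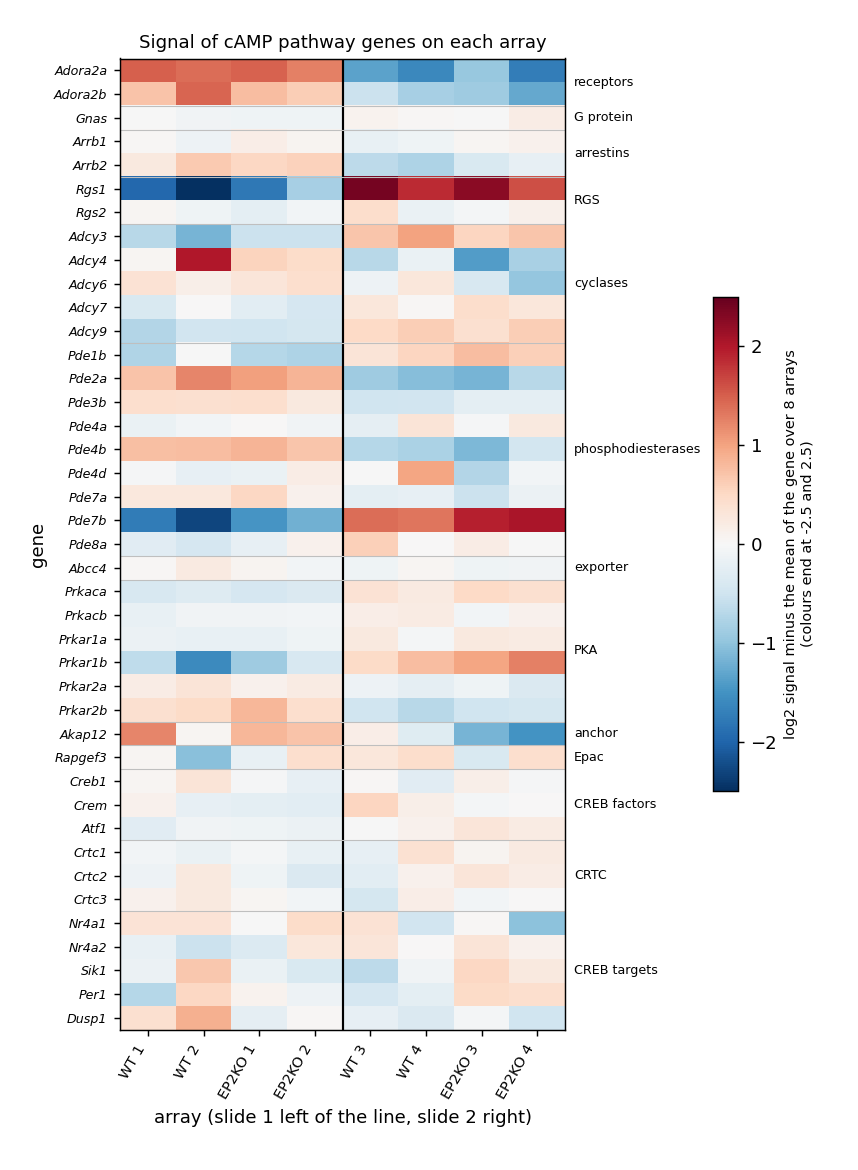
Rows are the 41 cAMP pathway genes tested, grouped by role, and columns are the 8 arrays, with slide 1 left of the line. Colour is the log2 signal minus the gene's mean over the 8 arrays. The contrast for Adora2a, Rgs1, Pde2a and Pde7b runs across the line between slides, while Gnas and the CRTC genes are pale on every array.

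Genotype differences within the slides were compared next. A difference of 1 sign on both slides was found for 17 of 41 members, where 36.3% of all features had one. A test of the genotype by slide interaction called 0 members (0.0145% of all features), with a smallest adjusted p of 0.187, and 3 members, Sik1, Adcy6 and Akap12, had an unadjusted interaction p under 0.05 (21.1% of all features). The genotypes did not overlap at all over the 8 arrays for 1 member, Arrb1, where 1.39% of all features behaved so. They did not overlap on slide 1 nor on slide 2, in 1 direction, for 3 members, Arrb1, Pde7b and Crem, where the share of all features was 7.02%. For Arrb1, Pde7b and Crem together, 3 of 41 members is a share of 7.32%, close to that background.

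**Figure D2:**
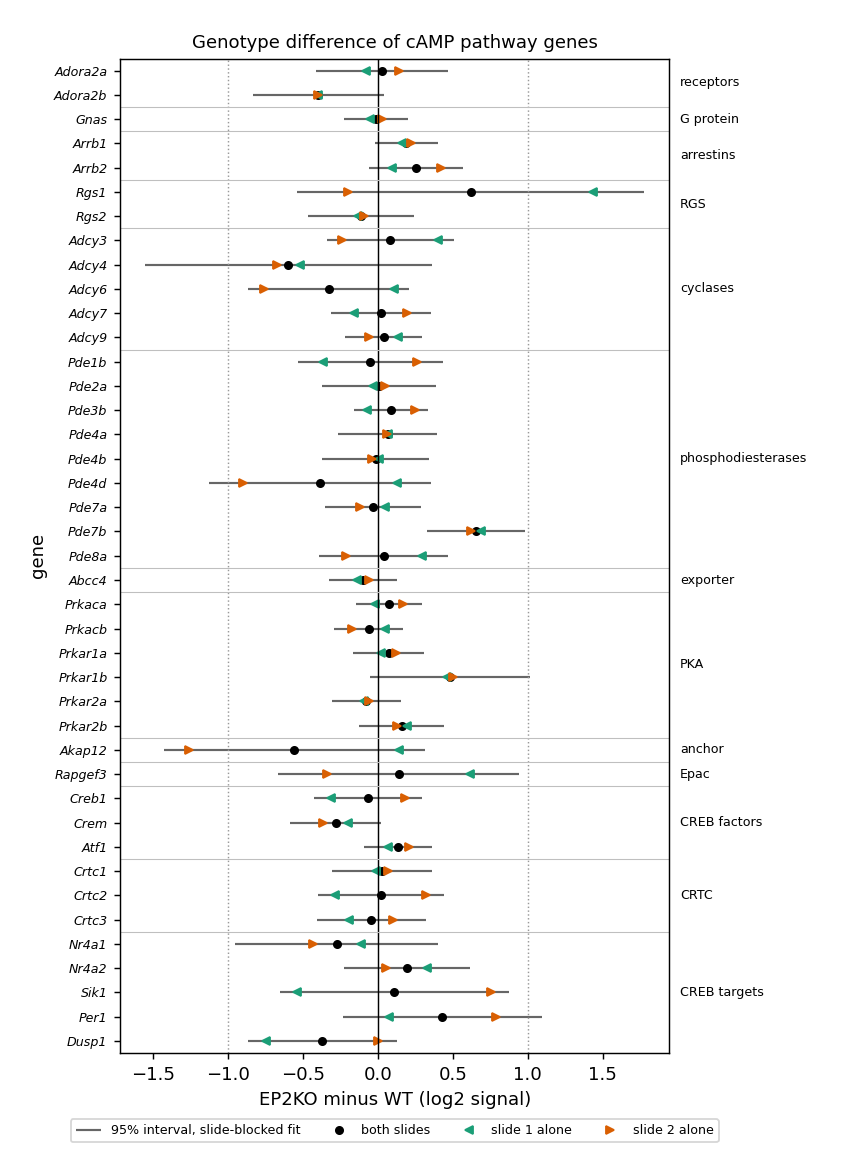
Each gene's difference EP2KO minus WT in log2 signal: black points for both slides, triangles for slide 1 and slide 2 alone, and bars for the 95% interval of the slide-blocked limma fit, with dotted lines at a 2-fold change. The bar of Pde7b lies right of 0, from 0.33 to 0.98, and the triangles of Rgs1, Akap12 and Sik1 lie far apart.

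The receptors at the head of the pathway were lower on slide 2, and neither passed the test between genotypes. Adora2a, a high-affinity adenosine receptor, read 1.35, 1.27, 1.34 and 1.15 on the arrays of slide 1 (WT 1, WT 2, EP2KO 1, EP2KO 2). On slide 2 it read 0.191, 0.157, 0.251 and 0.145 (WT 3, WT 4, EP2KO 3, EP2KO 4). The slides did not overlap, and slide 2 was lower by a log2 difference of -2.81 ± 0.19, or 7.01-fold (limma, adjusted p = 0.000109), with -2.92 among WT and -2.70 among EP2KO arrays. Its genotype difference was 0.03, with a slide-blocked interval of -0.41 to 0.47. Adora2b, its low-affinity relative, read 2.29, 3.82, 0.954 and 0.779 in WT 1 to 4 and 2.37, 2.13, 0.75 and 0.571 in EP2KO 1 to 4. Again both slide 2 pairs were low, and the slide difference was -1.78 ± 0.19. Its genotype difference was -0.40 on each slide. Leaving out 1 array from the fit without a block makes the slides unequal between genotypes, so members with a wide slide difference move with it: without WT 2, which lies on slide 1, the Adora2b value was 0.02. Adora2a and Adora2b were the only 2 receptors among the members.

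Gnas, which encodes the stimulatory G protein subunit, varied little over the 8 arrays. It read 35.9, 34.0, 38.8 and 37.1 in WT 1 to 4 and 33.7, 33.8, 36.1 and 41.5 in EP2KO 1 to 4. The genotypes overlapped fully, with a difference of -0.01 ± 0.13 and a slide-blocked interval of -0.23 to 0.20. Each array of slide 2 was above each of slide 1, by 0.16 ± 0.09, which did not pass (adjusted p = 0.202). The sign turned with small changes, to 0.02 without WT 3, EP2KO 1 or EP2KO 2, and to 0.10 with normexp background correction.

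Arrestins, which bind activated receptors and end G protein signalling, gave the member with the smallest unadjusted genotype p. Arrb1 read 7.34, 6.59, 6.30 and 6.66 in WT 1 to 4 and 8.05, 7.48, 7.42 and 7.69 in EP2KO 1 to 4. Every EP2KO array was above every WT array, yet by 0.19 ± 0.11 only (unadjusted p = 0.134, limma adjusted p = 1). The difference was 0.16 on slide 1 and 0.22 on slide 2. Arrb2 read 4.78, 6.34, 2.55 and 2.36 in WT and 5.78, 5.95, 3.09 and 3.5 in EP2KO. Its genotype difference of 0.26 ± 0.39 had an interval of -0.06 to 0.57 once the slide was a block. Slide 2 was lower for Arrb2 by -1.0 ± 0.13 (adjusted p = 0.00126), whereas Arrb1 differed by -0.07 between slides (adjusted p = 0.553).

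The RGS proteins speed the shut-off of G proteins, and their transcripts are themselves induced by signalling. Rgs1 read 0.941, 0.320, 19.3 and 13.3 in WT 1 to 4 and 1.07, 2.06, 17.5 and 11.2 in EP2KO 1 to 4. All 4 arrays of slide 2 were above all 4 of slide 1, by 4.05 ± 0.49 or 16.6-fold (adjusted p = 0.000882), the widest slide difference of any member. The genotype difference was 1.44 on slide 1 and -0.20 on slide 2. Over both slides it was 0.62, and -0.45 without WT 2 and -0.03 without EP2KO 3. Rgs2 read 20.5, 18.3, 26.8 and 17.5 in WT and 16.7, 18.7, 19.1 and 21.5 in EP2KO. Rgs2 showed no such split: it differed by -0.11 ± 0.17 between genotypes, which became 0.02 without WT 3, and by 0.18 between slides (adjusted p = 0.364).

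Of the adenylyl cyclases, which make cAMP from ATP, all 5 members (Adcy3, Adcy4, Adcy6, Adcy7 and Adcy9) were well above background on every array. Of 5 cyclase genes outside the set, Adcy1 and Adcy2 were so on no array, Adcy8 on 2 WT arrays and Adcy10 on 1 WT array at most, and Adcy5 passed the filter. Adcy7 ranged from 10.5 (EP2KO 2) to 18.9 (EP2KO 3), with a genotype difference of 0.02 and a slide-blocked interval of -0.31 to 0.35. Adcy9 read 1.37, 1.63, 3.22 and 3.48 in WT and 1.61, 1.67, 3.00 and 3.45 in EP2KO. Here the 4 arrays of slide 2 were high in both genotypes (1.07 ± 0.11, adjusted p = 0.000442), and the genotypes differed by 0.04. Adcy3 was also higher on slide 2, by 1.46 ± 0.18, and Adcy7 by 0.51 ± 0.14, although Adcy7 kept its call in only 2 of 8 fits that each left out 1 array (WT 2 or WT 4).

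Adcy4 and Adcy6 had the lowest genotype values among the cyclases. Adcy4 read 0.115, 0.449, 0.0687 and 0.0995 in WT and 0.164, 0.154, 0.0426 and 0.0633 in EP2KO. WT 2 stood above the rest, the difference was -0.60 ± 0.68, and the groups overlapped. Without WT 2 the difference was -0.03, and without EP2KO 3 it was -0.23. Adcy4 was lower on slide 2 by -1.54 ± 0.41 (adjusted p = 0.0203), a call lost without WT 3, EP2KO 1, EP2KO 2 or EP2KO 3 in turn. Adcy6 read 0.147, 0.127, 0.105 and 0.141 in WT and 0.142, 0.154, 0.0868 and 0.0592 in EP2KO. EP2KO 3 and EP2KO 4 were low, which gave a genotype difference of 0.11 on slide 1 and -0.76 on slide 2. The limma interaction had an unadjusted p of 0.0385 and an adjusted p of 0.213.

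The phosphodiesterases hydrolyse cyclic nucleotides. Of the 9 measured, 2 were higher on slide 2 (Pde1b and Pde7b, beside 25.1% of all features), 4 were lower (Pde2a, Pde3b, Pde4b and Pde7a, beside 18.2%) and 3 did not pass (Pde4a, Pde4d and Pde8a), while 0 passed between genotypes. Their genotype differences had a median of 0.01. Of 8 other phosphodiesterase genes, 6 passed the filter, and Pde1a and Pde11a did not.

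Pde7b, a cAMP-specific enzyme, had the smallest genotype p of the slide-blocked fit among members. It read 0.0149, 0.0103, 0.133 and 0.128 in WT 1 to 4 and 0.0182, 0.0218, 0.194 and 0.207 in EP2KO 1 to 4. On each slide both EP2KO arrays were above both WT arrays, while the 4 arrays of slide 2 were above all others. The genotype difference was 0.66 ± 1.21 without a block. With the slide as a block its interval was 0.33 to 0.98 (unadjusted p = 0.00209, limma adjusted p = 0.237), from 0.69 on slide 1 and 0.62 on slide 2. With normexp background correction in place of the deposited correction it was -0.05. That setting used the median spot signal and an offset of 50 as well. Which of these changes turned the sign was not tested. The slide difference was 3.36 ± 0.14, or 10.3-fold (adjusted p = 3.15e-05), and 1.89 in the lowest of 4 background and scaling settings. A further Pde7b probe was well above background on slide 2 alone.

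Pde2a, a phosphodiesterase stimulated by cGMP, went the opposite way between slides. It read 31.6, 44.9, 39.1 and 34.7 on slide 1 (WT 1, WT 2, EP2KO 1, EP2KO 2) and 10.4, 9.21, 8.60 and 12 on slide 2 (WT 3, WT 4, EP2KO 3, EP2KO 4). The slides did not overlap (-1.90 ± 0.16, 3.73-fold, adjusted p = 0.000244), and the genotypes differed by 0.01, with a slide-blocked interval of -0.37 to 0.39. Pde4b, the LPS-inducible member of the cAMP-specific family 4, ran from 1.11 to 1.24 on slide 1 and from 0.315 to 0.499 on slide 2. Pde4b too was lower on slide 2 (-1.54 ± 0.15), with a genotype difference of -0.01. Its paralogue Pde4a differed by 0.07 between genotypes and 0.15 between slides, and neither passed.

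Pde4d read 0.0324, 0.0286, 0.0330 and 0.0657 in WT 1 to 4 and 0.0295, 0.0376, 0.0199 and 0.0313 in EP2KO 1 to 4. WT 4 was high and EP2KO 3 low, so that the genotype difference was 0.13 on slide 1 and -0.90 on slide 2. Over all arrays it was -0.38 ± 0.31. Pde3b, a phosphodiesterase inhibited by cGMP, was lower on slide 2 by -0.74 ± 0.11 and Pde7a by -0.57 ± 0.14 (not called with normexp, adjusted p = 0.154), and Pde1b, a calmodulin-stimulated enzyme, was higher by 1.12 ± 0.20. Their genotype differences were 0.09, -0.03 and -0.05. Pde8a gave 0.04 between genotypes and 0.40 between slides (adjusted p = 0.118). Abcc4, which exports cAMP from cells, ranged from 0.758 (WT 3) to 0.953 (WT 2), with -0.10 ± 0.12 between genotypes and -0.12 between slides.

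Protein kinase A is a complex of catalytic and regulatory subunits, and 5 of its 6 members passed between slides, where 43.2% of all features did. Of the catalytic subunits, Prkaca read between 0.144 and 0.154 on slide 1 and between 0.225 and 0.273 on slide 2 (0.75 ± 0.09, adjusted p = 0.00102). Prkacb read from 9.35 (WT 1) to 12.2 (WT 4) and did not pass (0.21 ± 0.10, adjusted p = 0.129). Genotype differences of both were small, 0.07 for Prkaca and -0.06 for Prkacb, with slide-blocked intervals of -0.15 to 0.30 and -0.29 to 0.17.

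The type I and type II regulatory subunits went opposite ways between slides. Prkar1b read 0.305, 0.158, 0.662 and 0.806 in WT and 0.258, 0.357, 0.939 and 1.14 in EP2KO. Slide 2 was higher by 1.75 ± 0.23 (adjusted p = 0.00114). The genotype difference was 0.48, at 0.46 on slide 1 and 0.50 on slide 2, with a slide-blocked interval of -0.05 to 1.02 and an adjusted p of 0.733 in that limma fit. In the fit without a block it ranged from 0.04 (without WT 2) to 0.86 (without EP2KO 1) as 1 array was left out. Prkar1a was higher on slide 2 by 0.32 ± 0.10, a call that held in 1 of 8 fits leaving out 1 array (that without WT 4). Both type II subunits were lower on slide 2: Prkar2b by -1.07 ± 0.12, from 3.95 to 5.38 on slide 1 against 1.86 to 2.21 on slide 2, and Prkar2a by -0.41 ± 0.10. Prkar2a lost its call with normexp (adjusted p = 0.38) and median scaling (0.0539), and Prkar1a with those and with quantile normalization. Their genotype differences were 0.16 (Prkar2b), -0.08 (Prkar2a) and 0.07 (Prkar1a), and none passed.

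Akap12, a scaffold that anchors protein kinase A, read 0.376, 0.167, 0.181 and 0.131 in WT and 0.290, 0.264, 0.0725 and 0.0573 in EP2KO. EP2KO 3 and EP2KO 4 were the lowest, and the genotype difference was 0.14 on slide 1 and -1.26 on slide 2, with -0.56 ± 0.62 over both. Its limma interaction had an unadjusted p of 0.0415 and an adjusted p of 0.219. Its slide difference of -1.40 ± 0.37 passed (adjusted p = 0.0201), but lost the call when WT 1 or any 1 EP2KO array was left out. Of the Epac genes, whose proteins activate Rap in response to cAMP, Rapgef3 ranged from 0.121 (WT 2) to 0.335 (WT 4) with a difference of 0.14 ± 0.36. Rapgef4 was well above background on 0 WT arrays and 2 EP2KO arrays, with relative signals from 0.00566 to 0.0137, and no fold is given.

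Of the transcription factors, Atf1 alone passed between slides, and no factor or coactivator passed between genotypes. Creb1, the main target of the kinase, ranged from 0.177 (WT 4) to 0.270 (WT 2), with a difference of -0.06 ± 0.16. Its 2 probes gave slide differences of -0.07 and 0.62, so its level between slides is uncertain. Atf1, a close relative, read 1.92, 2.18, 2.31 and 2.52 in WT and 2.17, 2.12, 2.89 and 2.68 in EP2KO. Slide 2 was higher by 0.31 ± 0.10 (adjusted p = 0.0375), a call lost in 6 of 8 fits leaving out 1 array (kept without WT 2 or WT 3), and the genotypes differed by 0.14 ± 0.16. The coactivators Crtc1, Crtc2 and Crtc3 gave genotype differences of 0.03, 0.02 and -0.04 and passed neither comparison.

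Crem, a CREB relative that also produces the cAMP-inducible repressor ICER, read 0.580, 0.464, 0.778 and 0.594 in WT 1 to 4 and 0.455, 0.449, 0.517 and 0.539 in EP2KO 1 to 4. EP2KO was lower on each slide (-0.20 and -0.36), while WT 2 on slide 1 overlapped the EP2KO arrays of slide 2. The difference was -0.28 ± 0.18 (limma adjusted p = 1), and its slide-blocked interval was -0.58 to 0.02. The other kept Crem probe gave -0.27.

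The early CREB targets are the transcripts on which the pathway converges, and their promoters show the elements that CREB reads. Among promoters of RefSeq (build GRCm38.p6), the 250 bases before the transcription start were searched on both strands for the full element TGACGTCA and for its core TGACG, read as CGTCA on the other strand. A full element holds 2 overlapping cores. Promoters were found for 32 of the 43 members, 64 in all. Of these members 18 (56.2%) had a core in any promoter and 2 (6.2%), Dusp1 and Prkar1a, a full element. Over all 27025 genes in the table the shares were 19.79% and 1.77%. Counted by promoter, 35.9% of the 64 member promoters and 17.77% of all 32851 held a core. Early CREB targets were put in the list by name, so these shares are no test of it. Members and other genes differ in how many starts they have, and a match is a description of letters, not of binding. Stretches that hold cores of 6 early targets are shown because these genes are transcripts that CREB is known to drive. No promoter was found for Sik1, Rgs1 and Crem, so these were not searched for cores. Per1 has a core before each of 2 starts, of which 1 is shown. Each reads 5′ to 3′ on the gene's strand, with the cores in capitals and up to 12 bases around them.
Nr4a1, chr15:101266601-101266822, plus strand: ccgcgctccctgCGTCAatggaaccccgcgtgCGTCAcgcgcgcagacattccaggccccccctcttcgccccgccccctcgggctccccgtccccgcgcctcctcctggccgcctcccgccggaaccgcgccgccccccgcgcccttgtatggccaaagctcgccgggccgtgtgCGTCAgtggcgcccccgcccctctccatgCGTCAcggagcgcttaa
Nr4a2, chr2:57124098-57124215, minus strand: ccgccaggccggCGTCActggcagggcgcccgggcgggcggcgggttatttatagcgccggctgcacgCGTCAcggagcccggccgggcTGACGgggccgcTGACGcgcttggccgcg
Nr4a3, chr4:48045062-48045174, plus strand: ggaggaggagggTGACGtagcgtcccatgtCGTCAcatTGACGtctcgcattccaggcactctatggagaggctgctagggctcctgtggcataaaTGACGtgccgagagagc
Dusp1, chr17:26508596-26508675, minus strand: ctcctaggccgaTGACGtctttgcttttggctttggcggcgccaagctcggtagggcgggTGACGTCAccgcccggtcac
Rgs2, chr1:144004200-144004346, minus strand: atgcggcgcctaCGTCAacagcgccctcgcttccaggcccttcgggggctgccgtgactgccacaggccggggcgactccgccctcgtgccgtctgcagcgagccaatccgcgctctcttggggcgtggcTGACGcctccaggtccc
Per1, chr11:69100008-69100036, plus strand: gagctcagcggcTGACGtcggtttccctg
The 3 Nr4a promoters each held 4 cores. Those of Nr4a1 began 233, 213, 69 and 40 bases before the start, and those of Nr4a2 200, 144, 123 and 111 bases before it. Dusp1 carried its full element 143 bases before the start and a further core at 191 bases.

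Of the 5 early targets measured, 0 passed the test between genotypes and 0 passed between slides, where 43.2% of all features did. Rgs1 and Rgs2, described with the RGS proteins, are early targets too, and Rgs1 passed between slides. Nr4a1, an orphan nuclear receptor and immediate early gene, read 4.27, 4.24, 4.31 and 2.41 in WT 1 to 4 and 3.34, 4.63, 3.44 and 1.65 in EP2KO 1 to 4. The last array of each genotype was low, and the difference was -0.27 ± 0.35 (0.02 without EP2KO 4). Nr4a2, its relative, read 0.202, 0.159, 0.284 and 0.232 in WT and 0.181, 0.279, 0.288 and 0.247 in EP2KO. The groups overlapped, with 0.19 ± 0.23, a value that was -0.05 with normexp background correction. Nr4a3 was well above background on 0 of 8 arrays, with relative signals from 0.00145 to 0.00251, so the third receptor of that family, whose promoter has as many cores, has no comparison here.

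Per1, a clock gene, had the highest genotype value of the 5 genes grouped as CREB targets, below that of Rgs1 (0.62). It read 2.43, 5.65, 2.96 and 3.34 in WT and 4.21, 3.62, 5.55 and 5.31 in EP2KO. Both EP2KO arrays of slide 2 were above both WT arrays there, but WT 2 was the highest of all 8 arrays. The difference was 0.07 on slide 1, 0.79 on slide 2 and 0.43 ± 0.28 over both (unadjusted p = 0.165, limma adjusted p = 1). Dusp1, the phosphatase that switches off stress-activated kinases, had the lowest genotype value of the targets. It read 2.89, 4.03, 1.90 and 1.70 in WT and 1.88, 2.22, 2.12 and 1.53 in EP2KO. WT 1 and WT 2 were high, which gave -0.75 on slide 1 against 0.00 on slide 2, and -0.37 ± 0.29 over both.

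Sik1, a salt-inducible kinase that restrains the CRTC coactivators, had genotype differences of opposite sign on the 2 slides. It read 0.484, 0.86, 0.340 and 0.504 in WT and 0.477, 0.415, 0.772 and 0.635 in EP2KO. On slide 1 both WT arrays were above both EP2KO arrays (-0.54), and on slide 2 the order was reversed (0.76). The interaction had an unadjusted p of 0.0274 and an adjusted p of 0.187 (limma), so it did not pass. The value over both slides was 0.11 ± 0.32, and it turned to -0.09 without WT 3 and -0.05 without EP2KO 3.

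**Figure D3:**
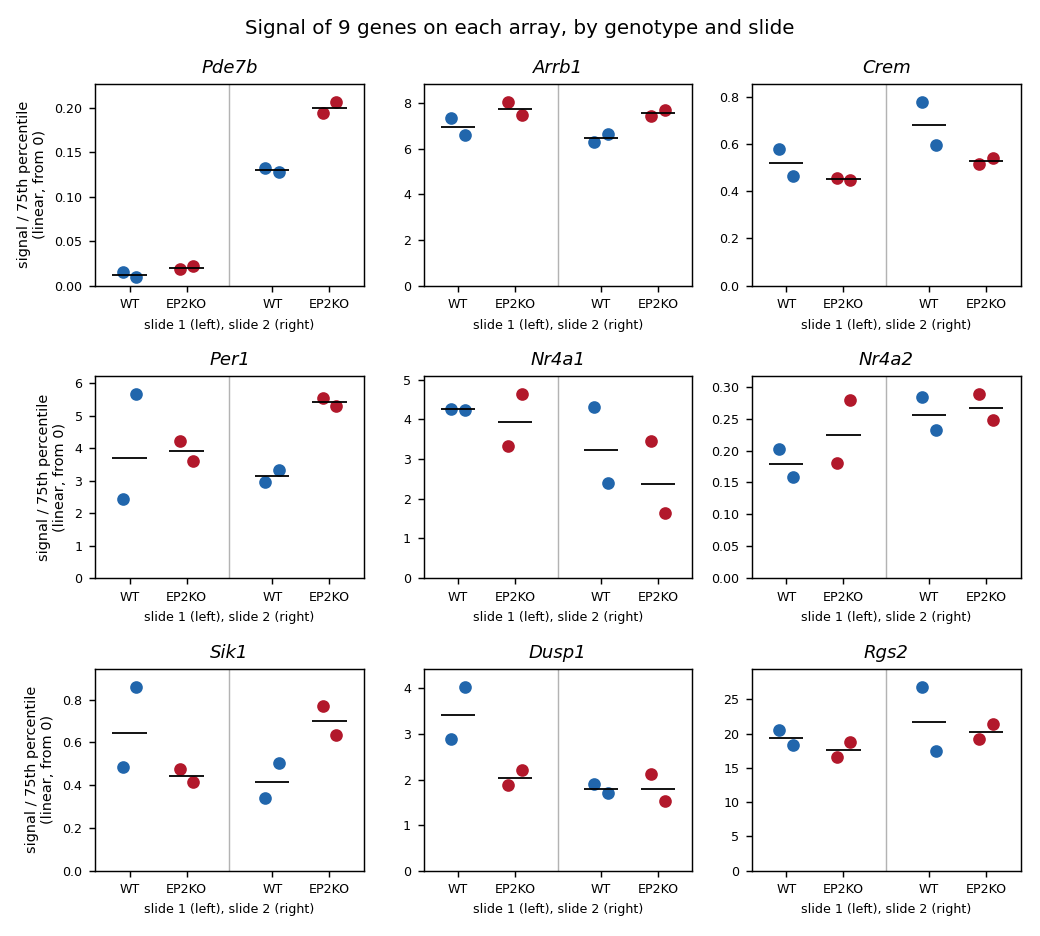
Points are relative signals (multiples of the array's 75th percentile, linear axes from 0) on single arrays, WT in blue and EP2KO in red, with slide 1 left and slide 2 right of the line, and bars are geometric means. Pde7b and Arrb1 are higher and Crem lower in EP2KO on each slide, and Sik1 changes order between slides.

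Between slides, 21 of 41 members (51.2%) differed at an adjusted p under 0.05, beside 43.2% of all features. Of these, 10 members (24.4%) were higher on slide 2, beside 25.1% of all features, and 11 (26.8%) were lower, beside 18.2%. All 21 went the same way among WT and among EP2KO arrays, and all 21 kept their sign with normexp background correction, median scaling and quantile normalization. The call held with the deposited correction and in all of those settings for 13: Adora2a, Adora2b, Arrb2, Rgs1, Adcy9, Pde1b, Pde2a, Pde3b, Pde4b, Pde7b, Prkaca, Prkar1b and Prkar2b. The other 8 (Adcy3, Adcy4, Adcy7, Akap12, Atf1, Pde7a, Prkar1a and Prkar2a) lost it in at least 1 setting. The call held in each of 8 fits leaving out 1 array for 16, and was lost in at least 1 fit for Adcy4, Adcy7, Akap12, Prkar1a and Atf1. Changes over 2-fold that passed were found for 13 members (17.6% of all features; 20% changed over 2-fold whether or not they passed).

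**Figure D4:**
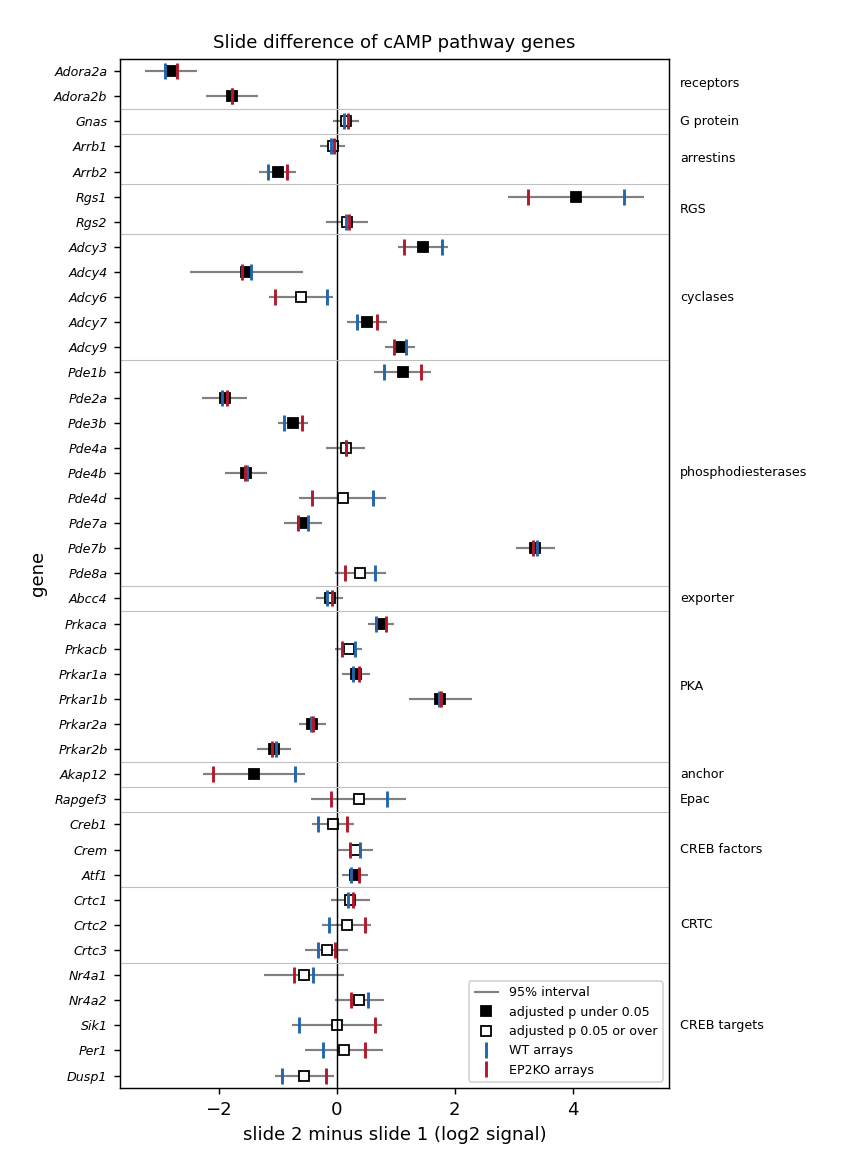
Each gene's difference slide 2 minus slide 1 in log2 signal, with its 95% interval, filled where the adjusted p is under 0.05, and ticks for WT and EP2KO arrays alone. Rgs1 at 4.05 and Pde7b at 3.36 lie farthest right and Adora2a at -2.81 farthest left, while the 5 genes grouped as CREB targets, from -0.56 to 0.38, have open symbols.

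Markers of other cells moved with the slide as well. Markers are counted as higher or lower on slide 2 at an adjusted p under 0.05. Over all features 25.1% were higher by that limit and 18.2% lower. In bulk RNA, fewer cells of a type and less RNA per cell cannot be told apart. The summed relative signal of 9 B cell markers, all well above background on every array, was 60.2 to 101 on slide 1 and 5.86 to 13.1 on slide 2, with 8 of 9 lower there. Of the mast cell markers tested, 7 of 8 were lower on slide 2 (sums of 11.9 to 33.5 against 2.89 to 13.2). For large peritoneal macrophage markers 10 of 12 were lower and 1 higher (199 to 271 against 143 to 187). The higher one, Cd93, ran from 11.76 to 28.75 on slide 1 and from 57.47 to 83.54 on slide 2. Icam2, among the lower ones, ran from 79.8 to 125.2 and from 7.03 to 12.87. The 14 T and NK cell markers, of which 12 were lower, summed to 9.26 to 24.6 and 15.4 to 24.3, with Il7r alone higher on slide 2. Monocyte markers (4 of 7 lower) summed to 197 to 295 and 116 to 158, and neutrophil markers (5 of 9 lower, 1 higher) to 67.3 to 128 and 53.6 to 58.6. Endothelial markers (3 of 6 tested higher, 1 lower, with Tek above background on no array) summed to 2.60 to 3.31 and 9.0 to 16.8. Vwf alone ran from 0.315 to 0.594 on slide 1 and 5.76 to 13.4 on slide 2, and so made up most of that rise. Fibroblast and mesothelial markers, with 0 of 14 called, ranged from 23.1 to 102 and from 4.90 to 154. The 9 general macrophage markers spanned 366 to 469 on slide 1 and 299 to 497 on slide 2, with 1 higher and 2 lower. Sums also separated by genotype within a slide. General macrophage markers ran from 392 to 469 in WT and 366 to 380 in EP2KO on slide 1. On slide 2 their order was reversed, with 299 to 366 in WT and 413 to 497 in EP2KO. B cell markers on slide 2 ran from 9.50 to 13.1 in WT and 5.86 to 9.26 in EP2KO. Neutrophil markers there ran from 53.6 to 54.0 in WT and 54.9 to 58.6 in EP2KO. Csf3r made up most of these sums, at 44.69 and 46.27 in WT and 54.23 and 50.49 in EP2KO. On the same slide S100a9, Cxcr2 and Mmp9 were lower on both EP2KO arrays, and Mmp8 and Ltf were higher. The rest of the neutrophil markers overlapped. Large peritoneal macrophage markers ran from 199 to 247 in WT and were 271 on both EP2KO arrays of slide 1, and ran from 143 to 160 and 183 to 187 on slide 2. Fn1 and Cd93 made up most of the slide 2 sums. Cd93 read 59.52 and 57.47 in WT 3 and WT 4, and 80.14 and 83.54 in EP2KO 3 and EP2KO 4. Fn1, Alox15 and Icam2 overlapped there. Ltbp1, Naip1, Prg4, Selp and Timd4 were higher on both EP2KO arrays of slide 2, and F5, Garnl3 and Gata6 were lower. Monocyte markers on slide 1 ran from 230 to 295 in WT and 197 to 217 in EP2KO. Endothelial markers ran from 2.60 to 3.02 in WT and 3.13 to 3.31 in EP2KO on slide 1, and from 9.0 to 12.4 and 16.3 to 16.8 on slide 2. Mast cell markers ran from 11.9 to 19.3 in WT and 31.4 to 33.5 in EP2KO on slide 1, and from 2.89 to 3.56 and 8.28 to 13.2 on slide 2. Fibroblast and mesothelial markers on slide 2 ran from 136 to 154 in WT and 4.90 to 29.2 in EP2KO, where Akap12 and Adcy6 were also lower in EP2KO. T and NK cell markers on slide 1 ran from 20.3 to 24.6 in WT and 9.26 to 9.33 in EP2KO. On slide 2 the order of the sums was reversed, with 15.4 to 17.1 in WT and 23.9 to 24.3 in EP2KO. Il7r alone read 11.95 and 13.49 in WT 3 and WT 4, and 21.58 and 21.23 in EP2KO 3 and EP2KO 4. It so made up most of the slide 2 sums, and the other T and NK cell markers did not reverse. Bcl11b, Cd3d, Cd3e, Cd3g, Cd5, Lat, Lck, Tcf7 and Thy1 were lower on both EP2KO arrays of each slide. Cd6, Gzma, Klrb1c and Ncr1 overlapped on slide 2. The part of these markers in the slide and genotype results was not tested.

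Other genes of the pathway, from lists written with earlier results of these data known, were counted beside the members. Among 19 receptors and G protein genes tested, 0 passed without a block and 1, Ptger2, was lower with the slide as a block. The next smallest p belonged to Calcrl, a receptor of the calcitonin family (0.42 ± 0.16, adjusted p = 1). Of 8 further cyclases, phosphodiesterases and exporters 0 passed, and the smallest p belonged to Adcy5 (-0.80 ± 0.27) and Pde5a (0.36 ± 0.24). Of 21 kinase inhibitors, anchors and Rap regulators 0 passed, with Popdc2, a cAMP-binding membrane protein, at -0.64 ± 0.22 and Akap7 at 0.33 ± 0.23. Of 13 further transcription factors, coactivators and salt-inducible kinases 0 passed, with the kinase Sik3 at 0.24 ± 0.18 and the transcription factor Mitf at 0.37 ± 0.41. Of 30 further CREB targets 0 passed, with Thbs1, the matrix protein thrombospondin, at 1.27 ± 0.54 and Fosl2 at -0.21 ± 0.12. Thbs1 had an adjusted p of 0.0616 with the slide as a block. The medians of these 5 lists were -0.06, 0.12, -0.01, 0.05 and -0.06, beside -0.03 over all features. Between slides, 3 of 19 passed as higher on slide 2 and 6 as lower in the first list, and 4 and 0 of 8 in the next. In the others 7 and 1 of 21, 6 and 1 of 13, and among the further CREB targets 5 and 9 of 30 did so. Over all features 25.1% were higher on slide 2 and 18.2% lower.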

How the data were processed

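In the deposited scanner files the spot intensity is linear, already background-corrected but not scaled between arrays, per the file headers, which name Feature Extraction 10.7.1.1. Agilent Feature Extraction 9.1 is named in the submitters' processing notes. The deposited series table held the same values. Per the labels' protocols, Trizol RNA was amplified and carried Cy3.

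The log2 of the processed signal minus each array's 75th percentile over gene spots was taken. Of 44397 spots, 1377 control spots were left out and outlier spots set missing. Spots of a probe were averaged. The array's design states mm9, so probes were named through RefSeq transcripts (GRCm38.p6), which named 27502 of 39429 probes, and no probe coordinates are given. A probe was kept if well above background on all arrays of a genotype, and a gene was represented by its brightest kept probe. Of 43 members, 16 had several kept probes, whose genotype differences lay within 0.15 of each other and slide differences within 0.69.

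Genotypes were compared over 20740 features (14490 named genes, 6250 unnamed probes) with limma 3.58.1 in R 4.3.3, without a block, with Benjamini-Hochberg adjustment, two-sided, at 0.05. The slide comparison, added after its results were known, is the slide term of the slide-blocked fit. Same-numbered arrays deviated together (r of 0.74, 0.12, 0.55 and 0.43), but they also share a slide. Alternatives were normexp, scaling, filters, probe choice, blocks, each slide, array weights, an intensity trend and leaving out each array. Normexp was run on the median spot signal with an offset of 50, since the files used here have no mean signal. The code was tested on simulated data. There the fit without a block called 18% of log2 changes of 1 and 64% of those of 2. With the slide as a block the shares were 56% and 84%, so true 2-fold changes can be missed.

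Members and gene lists were chosen with earlier results of these data known. Values on every array are given for Gnas, the targets, members below background, and the 5 members per direction with the smallest p without and with the slide block. Of the other lists, called genes or the 2 with the smallest p are named. Other members named for the slide were chosen after their values were seen.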

Additional observations from a re-analysis of the deposited data

Results flagged for a closer look

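In 4 of the 82 sets of 4 arrays (41 members, 2 genotypes), the highest or lowest array lay apart: its gap to the next, over the group's log2 range, passed Dixon's 95% critical value of 0.829. About 1 in 20 sets would pass that value if all 4 arrays came from 1 normal distribution. Each set held arrays of both slides, so that rate does not carry over to these sets. For Nr4a1, WT 4 read 2.41 beside 4.24 to 4.31 on the other WT arrays (ratio 0.970). For Pde4d, WT 4 read 0.0657 beside 0.0286 to 0.0330 (0.829). For Prkacb, EP2KO 4 read 11.4 beside 9.92 to 10.2 (0.832). For Abcc4, EP2KO 1 read 0.849 beside 0.759 to 0.773 (0.833).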

How the results depend on the processing

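No member was called between genotypes in any setting, including normexp background correction, the replicate block, each slide alone and each fit leaving out 1 array. The features called numbered 2 in all, 4 with the slide as a block, 0 on slide 1 alone, 217 on slide 2 alone and 0 with the replicate block, and 0 to 4 when 1 array was left out. The median over members moved to 0.16 with median scaling, and lay between -0.03 and 0.02 when 1 array was left out. Of the members called between slides, 21 in all, 13 were called with normexp, and 16 to 22 when 1 array was left out. Of 380 values of 19 named members, 25 changed sign and 355 kept both direction and call. With normexp the sign changed for Gnas (0.095), Nr4a2 (-0.0487), Pde7b (-0.0505) and Sik1 (-0.0074). It changed for Gnas (0.133) and Rgs2 (0.0316) with median scaling, and for Gnas with quantile normalization (0.0059) and the mean of probes (0.0185). On slide 1 alone it changed for Adcy6 (0.106), Akap12 (0.143), Pde4d (0.130) and Sik1 (-0.536), and on slide 2 alone for Gnas (0.0286), Dusp1 (0.0047) and Rgs1 (-0.196). When 1 array was left out the sign also changed for Gnas (-0.0778 to 0.0226), Adora2b (-0.742 to 0.0226), Nr4a1 (-0.481 to 0.0229), Sik1 (-0.0904 to 0.356), Rgs1 (-0.451 to 1.52) and Rgs2 (-0.189 to 0.0176). As described for Adora2b, leaving out 1 array made the slides unequal between genotypes, which moves members with a wide slide difference. What else changed signs in these settings was not tested. The replicate block left the differences as they were, since each number holds both genotypes. Members with relative signals far below 1, such as Pde7b, lie nearer to background, and 4 arrays per genotype limit every interval.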
